A study of Homo sapiens with 12 samples.

Results

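The EDTA response of MCF10-A cells was set against itself in 2 derivatives of the line, as the change with EDTA in B4-4 minus the change with EDTA in Vector. MCF10-A is a non-tumour human mammary epithelial line. The contrast used 8 of the 12 RNA-seq libraries of the series, with 2 libraries in each of B4-4 EDTA, B4-4 NA, Vector EDTA and Vector NA, and the members were the 15749 of 58233 genes that passed a filter on low counts. The 4 libraries of another derivative, Addback, entered only the estimate of the spread between libraries. All groups shared the same handling per the labels' protocols: after trypsin the cells spent 3 hours without serum on poly-HEMA, a coating to which they cannot attach. B4-4 and Vector are the labels' names for the derivatives, and EDTA and NA those for the treatment. How B4-4 was made, whether it is 1 clone, what NA stands for and how much EDTA was used are not stated in the sources used here. Nothing in the labels says that replicates were separate cultures, so p-values measure only the spread between libraries, which may be technical.

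EDTA binds divalent cations such as calcium and magnesium, on which cadherins and integrins depend to hold their ligands. ITGB4 encodes the beta 4 chain, which pairs with the alpha 6 chain in the integrin that ties hemidesmosomes to laminin in the basement membrane. In keratinocytes and mammary epithelial cells, adhesion receptors, growth factor receptors and the actin cytoskeleton are linked to one another, and detachment changes all of them. A positive difference on the log2 scale means that the change with EDTA was higher in B4-4 than in Vector, whether because B4-4 moved up or because Vector moved down. For that reason the levels in the libraries or the changes within the lines are given for many of the genes. Where a difference stands without them, it does not tell which line moved. Levels are CPM, counts scaled to the size of the library, and are compared only within a gene.

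The 8 libraries held between 15685376 and 22156173 counts, and 3 counts were worth 0.133 to 0.192 CPM. The distance between replicates was unequal. As a biological coefficient of variation it came to 4.19% in B4-4 EDTA, 24.1% in B4-4 NA, 10.2% in Vector EDTA and 3% in Vector NA. Among these 4 groups B4-4 NA stands apart, with 391 of 10584 genes at least 2-fold apart between its libraries. B4-4 NA 1 was closer to Vector NA 2 (r = 0.9805 over genes) than to its own replicate (r = 0.9757). The Addback libraries, which enter the estimate of the spread, came to 18.8% in Addback EDTA and 5.85% in Addback NA. In Addback EDTA, 213 of 10462 genes were at least 2-fold apart. ITGB4 (ENSG00000132470, chromosome 17, 75721328 to 75757818, plus strand) had 372 and 390.0 CPM in B4-4 EDTA, 182 and 396 CPM in B4-4 NA, 1678 and 1850 CPM in Vector EDTA and 1775 and 1780 CPM in Vector NA. Every B4-4 library lay below every Vector library. The EDTA response of ITGB4 did not pass the test of the difference (difference +0.41, SE 0.40, adjusted p = 0.49). Its value was −0.05 (adjusted p = 0.824) without B4-4 NA 1, and +1.08 (adjusted p = 0.000142) without B4-4 NA 2. Of 10 basal mammary epithelial markers, among them the keratins KRT5 and KRT14, all were expressed and their summed level ran from 15400 to 16400 CPM in B4-4 EDTA, 13100 to 13200 CPM in B4-4 NA, 11500 to 12000 CPM in Vector EDTA and 15800 to 15900 CPM in Vector NA. The keratin KRT15 went against that sum in B4-4, at 121 and 130 CPM in EDTA and 1440 and 368 CPM in NA. Of the 10, 6 had a positive difference and 1 a negative one. The 12 luminal markers summed to 899 to 954 CPM in B4-4 EDTA, 1210 to 1420 CPM in B4-4 NA, 893 to 937 CPM in Vector EDTA and 1210 to 1230 CPM in Vector NA, most of it the keratins KRT8 and KRT18, MUC1 and EPCAM, with KIT at 0 in all 8 libraries. The 8 fibroblast markers summed to 15.9 to 16.2 CPM in B4-4 EDTA, 18.1 to 30.3 CPM in B4-4 NA, 30.7 to 30.8 CPM in Vector EDTA and 15.2 to 16.3 CPM in Vector NA. For the 7 immune markers the sums were 26.9 to 27.8 CPM in B4-4 EDTA, 22.5 to 29.3 CPM in B4-4 NA, 21 to 21.6 CPM in Vector EDTA and 22.6 to 25 CPM in Vector NA. Nearly all of it was CSF1R and CD14. The 6 endothelial markers summed to 3.46 to 3.77 CPM in B4-4 EDTA, 9.64 to 25.8 CPM in B4-4 NA, 23.3 to 25.3 CPM in Vector EDTA and 24.9 to 25.7 CPM in Vector NA, nearly all of it PECAM1, with CDH5 at 0 in all 8. Their part in the results was not tested.

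The change with EDTA differed between B4-4 and Vector at 4249 of the 15749 genes (27%) at a Benjamini-Hochberg adjusted p under 0.05 in edgeR's quasi-likelihood test, with 2268 differences positive (14.4%) and 1981 negative (12.6%). Of these, 1018 positive and 1097 negative differences were at least 2-fold. Scaling with upper-quartile factors gave 1805 positive and 2497 negative differences and moved the median over all genes to −0.12, against −0.01 with the TMM factors used here, and the directions below are relative to that median; no median of a list given below, nor that of the histone or circadian clock genes, changed its sign with those factors or with RLE factors. Within the lines, EDTA against NA passed the test at 3138 genes in B4-4 (19.9%; 1556 higher, 9.88%, and 1582 lower, 10%) and at 2416 genes in Vector (15.3%; 1002 higher, 6.36%, and 1414 lower, 8.98%). The number for the difference was 2513 without B4-4 EDTA 1, 2462 without B4-4 EDTA 2, 2429 without Vector NA 1 and 2364 without Vector NA 2, and 1978 genes passed without each of the 12 libraries in turn. Without the loosely paired B4-4 NA 1 or B4-4 NA 2 it was 5515 or 4851.

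Most genes that responded in both lines did so in opposite directions. Of 853 genes called in both, 27.2% of those in B4-4 and 35.3% of those in Vector, 110 changed the same way (35 up and 75 down) and 743 changed opposite ways, 408 higher in B4-4 and lower in Vector and 335 the reverse. All 743, or 4.72% of the genes tested, also passed the test of the difference. That test subtracts these same 2 changes, so this outcome was nearly fixed beforehand and is no separate support. The 743 made up 17.5% of the calls for the difference. A further 36.8% of the 4249 (1565 genes) were called in B4-4 alone, 24.9% (1060) in Vector alone and 20.3% (863) in neither. The remaining 18 genes moved the same way in both lines but by different amounts, among them the transglutaminase TGM1 and the keratin KRT16. Leaving out 1 library changed these numbers and their order. The number in B4-4 alone was 399 and 436 without B4-4 EDTA 1 and 2. The number in Vector alone was 1642 without B4-4 NA 2, above the 1425 in B4-4 alone there, 378 without Vector EDTA 1, and 370 and 348 without Vector NA 1 and 2. The 18 ranged from 6 without either B4-4 EDTA library to 55 without B4-4 NA 2. The 743 became 223 and 225 without B4-4 EDTA 1 and 2, 1376 without B4-4 NA 1, 344 and 415 without Vector EDTA 1 and 2, and 241 and 244 without Vector NA 1 and 2. Across the 10616 genes at a mean of 5 CPM or more, the log2 responses of the lines, which share no library, had r = −0.319 and rho = −0.329, and 38.4% of genes had the same sign. This is a description over genes, which are not independent replicates. It was negative for every choice of libraries, from −0.391 to −0.208.

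**Figure D1:**
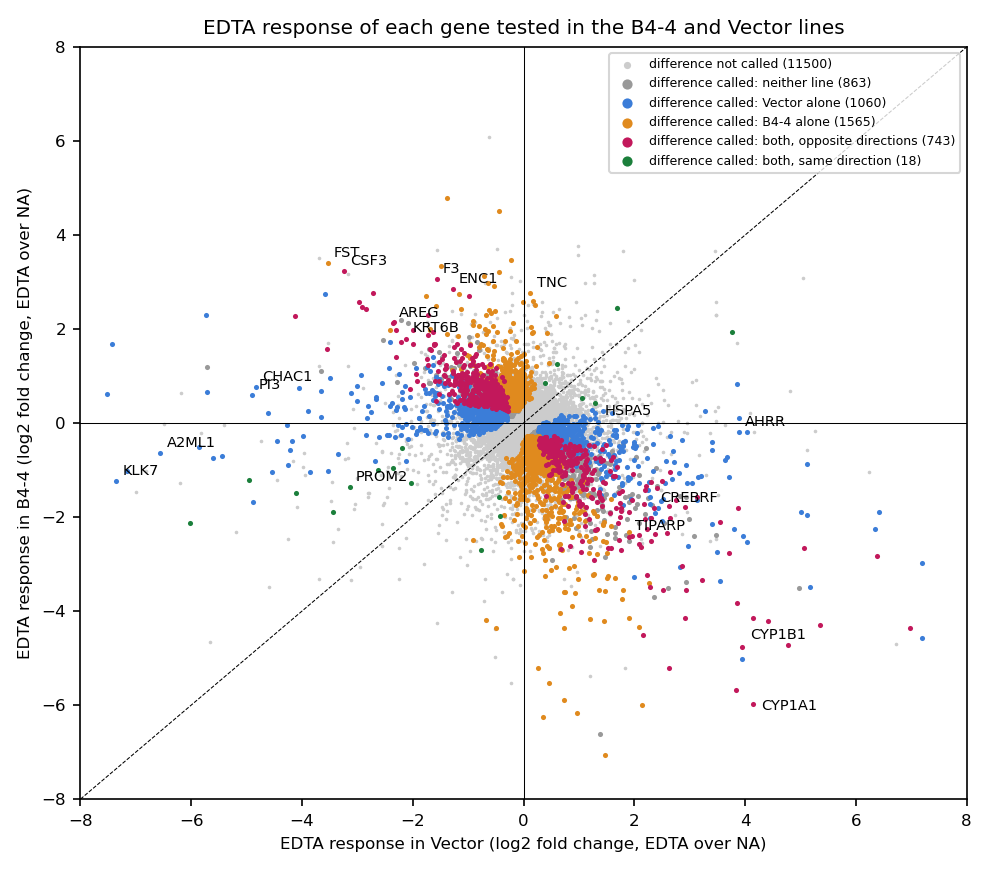
Log2 change with EDTA in B4-4 (vertical axis) against the same in Vector (horizontal axis), 1 point per gene tested. Genes called for the difference are coloured by where EDTA against NA was called: both lines in opposite directions, both in the same direction, B4-4 alone, Vector alone or neither. Outside the axes lie 4 genes. Points above the diagonal have a positive difference, and the 743 genes called in both lines in opposite directions lie in the upper left (408) and lower right (335) corners.

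The lines stood further apart with EDTA than without it. B4-4 and Vector differed at 6831 genes in EDTA (43.4%) and at 1128 genes in NA (7.16%) in the same test. Of the 4249 genes, 3258 differed between the lines in EDTA only, 215 in NA only, 92 in both with the same sign, 289 in both with opposite signs and 395 in neither. The first principal component of the 8 libraries, with 46.9% of the variance, placed B4-4 EDTA at one end, Vector EDTA at the other and the NA libraries of both lines between them. The number in EDTA was 4390 and 4383 without B4-4 EDTA 1 and 2. In NA it was 648 and 643 without the same libraries, 3319 without B4-4 NA 1, 81 and 84 without Vector NA 1 and 2, and 664 and 665 without Addback NA 1 and 2.

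Among called genes at a mean of 5 CPM or more, clone, LINC and antisense names aside, CYP1A1 and CYP1B1 had the largest negative differences. Both are xenobiotic-response genes and targets of the aryl hydrocarbon receptor, a ligand-activated transcription factor. The receptor pairs with ARNT and binds a core of the letters GCGTG. The cytochrome P450 gene CYP1B1 (ENSG00000138061, chromosome 2, 38066973 to 38109902, minus strand) had 6.52 and 5.64 CPM in B4-4 EDTA, 156 and 177 CPM in B4-4 NA, 641 and 469.5 CPM in Vector EDTA and 36.1 and 36 CPM in Vector NA. EDTA thus went with the lowest levels in B4-4 and the highest in Vector, and no 2 of the 4 groups overlapped (difference −8.72, SE 0.47, adjusted p = 1.38e-05). Reads of its antisense partner CYP1B1-AS1, which moved the same way (−6.57, adjusted p = 2.29e-06), cannot be told apart from those of CYP1B1, as the strand setting of the counting is not stated in the sources used here. The related enzyme CYP1A1 (ENSG00000140465, chromosome 15, 74719542 to 74725610, minus strand) had 1.09 and 1.01 CPM in B4-4 EDTA, 54.4 and 78.4 CPM in B4-4 NA, 125 and 135 CPM in Vector EDTA and 6.5 and 8.23 CPM in Vector NA. The order of the groups was that of CYP1B1 (difference −10.11, SE 1.09, adjusted p = 0.00112). TIPARP (ENSG00000163659, chromosome 3, 156673235 to 156706770, plus strand), a mono-ADP-ribosyltransferase that feeds back on the receptor, had 37.1 and 35.9 CPM in B4-4 EDTA, 232 and 159 CPM in B4-4 NA, 325 and 282 CPM in Vector EDTA and 85 and 77.6 CPM in Vector NA. Again no groups overlapped (difference −4.32, SE 0.27, adjusted p = 4.23e-06), and all 3 genes kept the call without each library in turn. The receptor repressor AHRR stood near the floor, at 0.465 and 0.266 CPM in B4-4 EDTA, 0.631 and 0.192 CPM in B4-4 NA, 1.76 and 1.59 CPM in Vector EDTA and 0.168 and 0.0514 CPM in Vector NA (−4.07, adjusted p = 0.00625), and its adjusted p was 0.0694 without B4-4 NA 1. In all, 5 of 10 genes of the receptor and its targets had a negative difference and 0 a positive one, with a median of −0.81. The transcript of the receptor itself, AHR (+0.03, adjusted p = 0.954), and that of ARNT (−0.22, adjusted p = 0.312) did not pass.

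Promoter windows of CYP1A1 and TIPARP are shown because both genes swung in opposite directions in the lines. Each runs from 250 bases before to 50 bases after the start of the gene in RefSeq (GRCh38.p14), 5′ to 3′ on the strand of the gene, with the GCGTG core in capitals, or CACGC where the core reads on the other strand. The CYP1A1 window lies at chr15:74725479-74725778 on the minus strand, and that of TIPARP, the first of 3 for the gene in the table, at chr3:156674340-156674639 on the plus strand.
CYP1A1: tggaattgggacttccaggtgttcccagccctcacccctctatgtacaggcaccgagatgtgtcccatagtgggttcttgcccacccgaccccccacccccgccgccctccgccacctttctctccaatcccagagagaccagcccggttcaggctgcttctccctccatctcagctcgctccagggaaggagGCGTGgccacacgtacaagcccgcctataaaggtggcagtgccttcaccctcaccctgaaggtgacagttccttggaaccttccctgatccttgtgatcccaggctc
TIPARP: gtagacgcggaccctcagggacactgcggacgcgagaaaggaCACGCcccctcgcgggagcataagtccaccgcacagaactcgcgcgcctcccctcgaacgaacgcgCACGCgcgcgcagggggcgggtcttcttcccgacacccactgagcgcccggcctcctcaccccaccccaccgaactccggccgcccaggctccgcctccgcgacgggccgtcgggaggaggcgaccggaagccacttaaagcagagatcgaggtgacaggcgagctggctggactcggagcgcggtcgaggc
CYP1A1 held 1 match and TIPARP 2, both of them on the other strand. The core, which is also part of the hypoxia response element, was found on either strand in 36.5% of 35116 promoter windows, so its presence here is a description only.

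**Figure D2:**
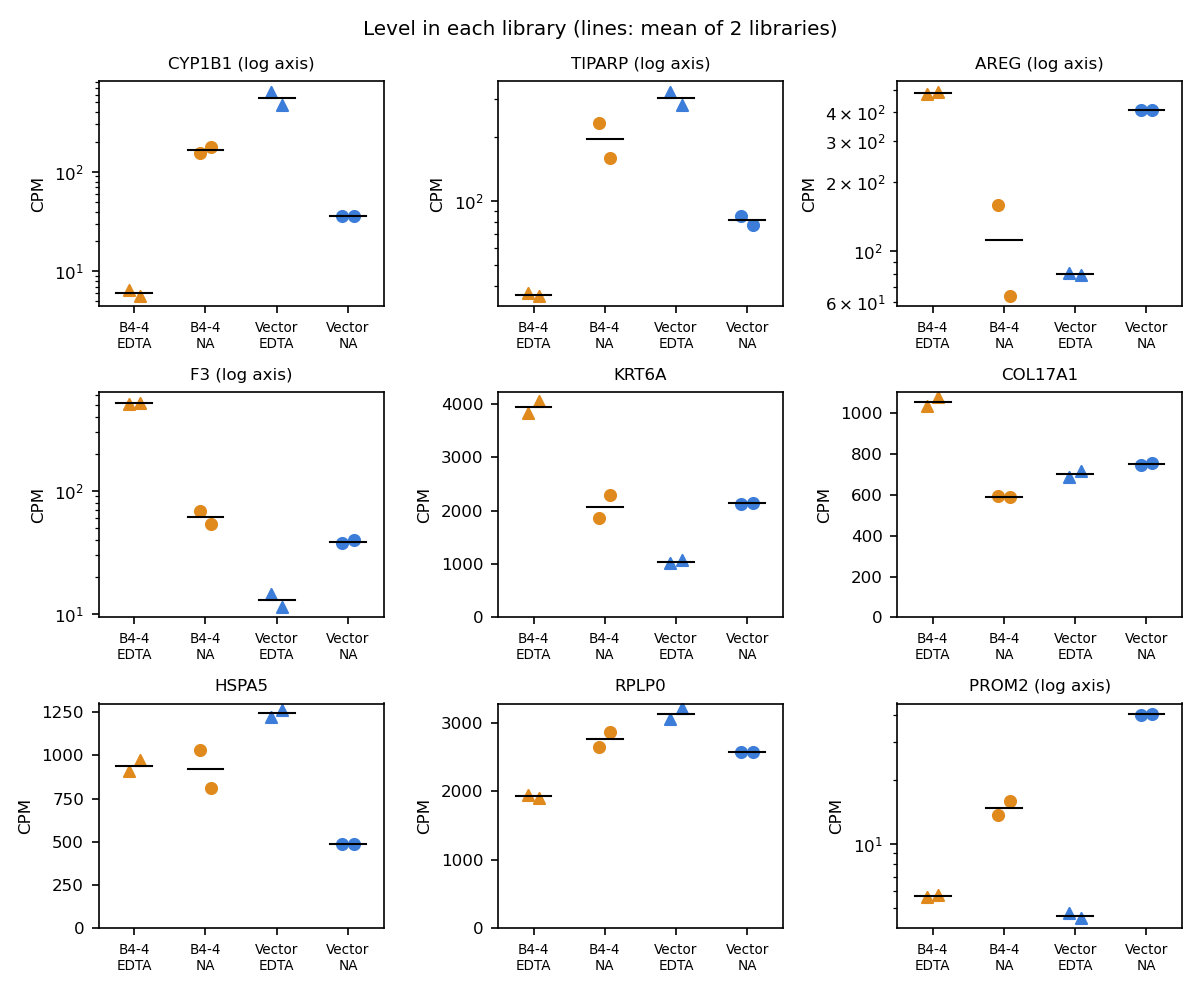
Levels (CPM) of 9 genes, by library and group with EDTA left of NA and B4-4 left of Vector; points are libraries and lines are means of 2. Axes of CYP1B1, TIPARP, AREG, F3 and PROM2 are logarithmic and the others start at 0; CYP1B1 and TIPARP are lowest in B4-4 EDTA and highest in Vector EDTA, and F3 and KRT6A are highest in B4-4 EDTA and lowest in Vector EDTA.

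Under the rule for named genes, the other 9 of the 12 largest negative differences belonged to genes of varied function. RIPK4, a kinase of keratinocyte differentiation, had 39.6 and 43.9 CPM in B4-4 EDTA, 174 and 266 CPM in B4-4 NA, 320.5 and 358 CPM in Vector EDTA and 86.6 and 88.8 CPM in Vector NA (difference −4.35, SE 0.31, adjusted p = 1.83e-05). NRARP, a target and inhibitor of Notch signalling, had 27.5 and 21.9 CPM in B4-4 EDTA, 184 and 129 CPM in B4-4 NA, 251 and 246 CPM in Vector EDTA and 84.5 and 88.9 CPM in Vector NA (difference −4.18, SE 0.44, adjusted p = 0.000386). CREBRF, a negative regulator of the stress factor CREB3, had 11.1 and 9.16 CPM in B4-4 EDTA, 39.2 and 31.6 CPM in B4-4 NA, 122 and 78.9 CPM in Vector EDTA and 19.7 and 19.8 CPM in Vector NA (difference −4.15, SE 0.28, adjusted p = 4.67e-06). In all 3, B4-4 EDTA was the lowest group and Vector EDTA the highest, with no overlap. The tubulin-binding protein TPPP (difference −4.47, SE 0.33, adjusted p = 4.98e-06) and the ethanolamine kinase ETNK2 (difference −4.19, SE 0.56, adjusted p = 0.000958) kept the call without each library too. The other 4 of the 12 largest did not. The differences of PDK4, which inhibits pyruvate dehydrogenase (−5.49, adjusted p = 0.0155), and of the kinase subunit CAMK2B (−4.91, adjusted p = 0.0121) each missed the threshold without B4-4 EDTA 1, B4-4 EDTA 2, Vector NA 1 or Vector NA 2, at 0.0675, 0.0689, 0.0676 and 0.0705 for PDK4 and 0.0647, 0.0597, 0.0545 and 0.0556 for CAMK2B. IQCN (−5.09, adjusted p = 0.0222) missed it without B4-4 EDTA 1 (0.101), B4-4 EDTA 2 (0.0861), Vector EDTA 2 (0.0579), Vector NA 1 (0.0886) and Vector NA 2 (0.0881). In B4-4 NA 1 and B4-4 NA 2, PDK4 was at 53.8 and 208 CPM, IQCN at 71.8 and 14.2 CPM and CAMK2B at 30.7 and 17.2 CPM. EDTA against NA was called in neither line for PDK4. The stress factor ATF3 (−4.29, adjusted p = 0.0325) was at 427 CPM in B4-4 NA 1 and 73.1 CPM in B4-4 NA 2. Without B4-4 EDTA 1 or 2, Vector EDTA 1 or 2, Vector NA 1 or 2 and Addback NA 1 or 2 in turn its adjusted p was 0.114, 0.115, 0.0711, 0.0769, 0.115, 0.114, 0.0566 and 0.0568.

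At the positive extreme, under the same rule, secreted factors and epidermal proteins led. CSF3, the granulocyte colony-stimulating factor, had 40.2 and 45.7 CPM in B4-4 EDTA, 7.29 and 1.72 CPM in B4-4 NA, 1.07 and 0.798 CPM in Vector EDTA and 8.58 and 9.2 CPM in Vector NA. The B4-4 EDTA libraries were the highest of the 8 and the Vector EDTA libraries the lowest (difference +6.48, SE 0.97, adjusted p = 0.00282). FST, the activin antagonist follistatin, had 107 and 112 CPM in B4-4 EDTA, 4.13 and 16.6 CPM in B4-4 NA, 0.602 and 0.62 CPM in Vector EDTA and 7.01 and 7.3 CPM in Vector NA, with the same 2 groups at the ends and the NA libraries of B4-4 on both sides of those of Vector (difference +6.94, SE 1.35, adjusted p = 0.0109). For the skin proteases KLK7 (difference +6.12, SE 1.12, adjusted p = 0.00726) and KLK5 (difference +4.87, SE 0.74, adjusted p = 0.00112), the elastase inhibitor PI3 (difference +5.50, SE 0.75, adjusted p = 0.00229) and the protease inhibitor A2ML1 (difference +5.91, SE 0.66, adjusted p = 0.00011), the difference lay mainly in Vector. KLK7 had 11.5 and 10.1 CPM in B4-4 EDTA, 15.3 and 35.6 CPM in B4-4 NA, 0.278 and 0.399 CPM in Vector EDTA and 55.7 and 57.6 CPM in Vector NA. Vector EDTA lay close to the floor of 3 counts and below every other group. The same held for A2ML1, at 0.232 and 0.133 CPM in Vector EDTA against 18.8 and 16.6 CPM in Vector NA. MACC1, a regulator of MET (difference +4.33, SE 0.44, adjusted p = 8.61e-05), and ENC1, an actin-binding protein (difference +4.12, SE 0.46, adjusted p = 0.000135), also kept the call, as did CGN, F3 and AREG, which are described with their lists. The Wnt antagonist DKK1 (+4.47, adjusted p = 0.0355) lost it without each of 10 libraries, with adjusted p from 0.0565 to 0.128; the 2 exceptions were Addback EDTA 1 and 2. Of the 24 largest, 19 kept the call without each library, and 12 were called in both lines in opposite directions.

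**Figure D3:**
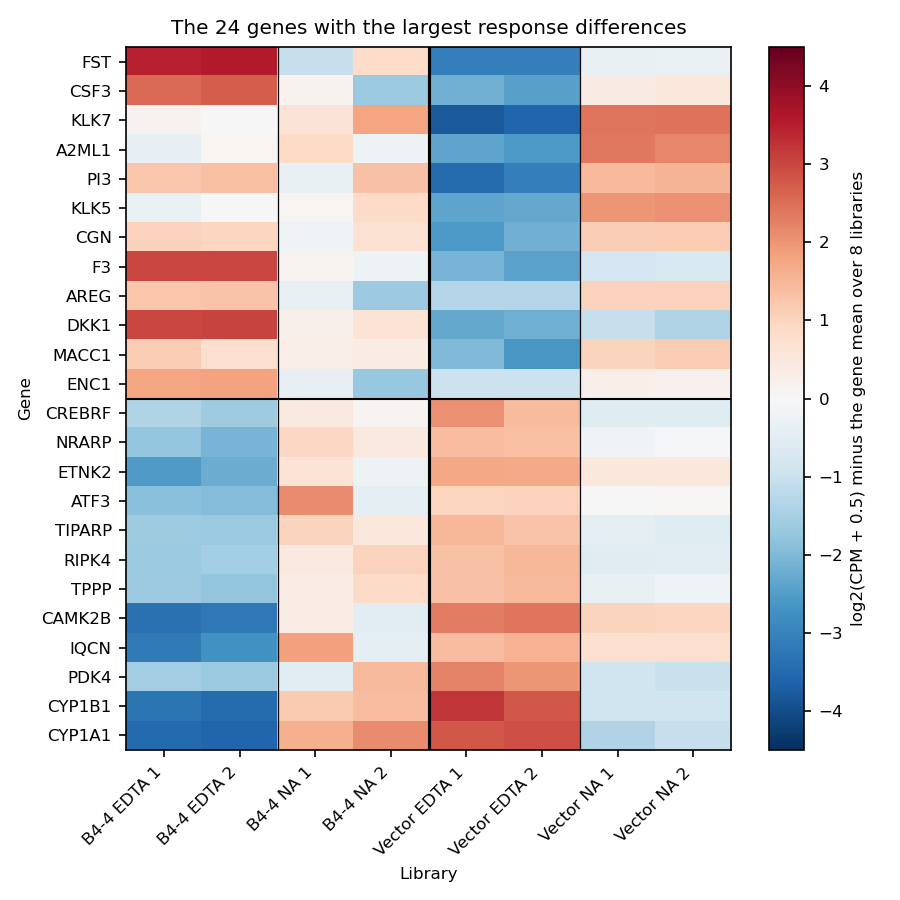
Log2 CPM of the 24 largest differences under the rule for named genes in each of the 8 libraries, centred on the mean of the gene. Columns are in the order B4-4 EDTA, B4-4 NA, Vector EDTA and Vector NA, and rows by the size of the difference. The B4-4 EDTA and Vector EDTA columns have opposite colours in most rows, as for CYP1B1 (difference −8.72) and F3 (+4.63).

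Ligands of the epidermal growth factor receptor and genes of ERK feedback had a positive difference at 11 of 22, with 0 negative, and a median of +1.48. Each list count here is to be read beside the shares over all genes, 14.4% positive and 12.6% negative. Amphiregulin, AREG (ENSG00000109321, chromosome 4, 74445134 to 74455009, plus strand), had 478 and 492 CPM in B4-4 EDTA, 159 and 63.9 CPM in B4-4 NA, 80.3 and 79 CPM in Vector EDTA and 409 and 411 CPM in Vector NA. B4-4 EDTA and Vector NA were high, and B4-4 NA and Vector EDTA were low (difference +4.49, SE 0.51, adjusted p = 0.000804). The ligand epiregulin, EREG, had 51.3 and 50.7 CPM in B4-4 EDTA, 17.9 and 7.73 CPM in B4-4 NA, 11 and 7.84 CPM in Vector EDTA and 37.7 and 37.6 CPM in Vector NA, in the same arrangement (difference +3.98, SE 0.46, adjusted p = 0.000453). Transforming growth factor alpha, TGFA (difference +2.65, SE 0.27, adjusted p = 8.76e-05), was similar, at 136 CPM in both B4-4 EDTA libraries and 34.5 and 34.3 CPM in those of Vector EDTA. Epigen, EPGN, differed through Vector only, with responses of −0.08 in B4-4 and −2.20 in Vector (difference +2.12, SE 0.18, adjusted p = 1.49e-05). Among genes that ERK induces and that damp it, the phosphatase DUSP4 (+3.28, adjusted p = 0.0012) and SPRY2 (+3.68, adjusted p = 0.00221) passed, and DUSP6 (+3.25, adjusted p = 0.068) and SPRY1 (+2.24, adjusted p = 0.0583) did not. The receptors EGFR (+0.17, adjusted p = 0.665), ERBB2 (+0.36, adjusted p = 0.147) and ERBB3 (−0.25, adjusted p = 0.472) did not pass. Of the 11 calls, 9 held without each library.

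The promoter window of AREG, shown as that of the most changed ligand, lies at chr4:74444886-74445185 on the plus strand and holds 1 copy of TGACGTCA, the cAMP response element, in capitals.
AREG: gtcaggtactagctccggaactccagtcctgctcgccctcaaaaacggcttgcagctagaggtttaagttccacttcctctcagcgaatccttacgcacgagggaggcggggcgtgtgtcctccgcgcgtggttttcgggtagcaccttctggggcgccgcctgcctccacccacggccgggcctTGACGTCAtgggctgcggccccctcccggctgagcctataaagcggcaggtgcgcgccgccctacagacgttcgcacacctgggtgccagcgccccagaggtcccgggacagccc
This palindrome, which reads the same on both strands, occurs in 1.85% of the 35116 windows.

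Genes of plasminogen activation and clotting had a positive difference at 4 of 10, with 0 negative and a median of +1.21, and all 4 kept the call without each library. Tissue factor, F3 (ENSG00000117525, chromosome 1, 94529225 to 94541800, minus strand), which starts the clotting cascade, had 511 and 519 CPM in B4-4 EDTA, 68.8 and 54.2 CPM in B4-4 NA, 14.6 and 11.4 CPM in Vector EDTA and 37.6 and 39.5 CPM in Vector NA. B4-4 EDTA lay above every other group and Vector EDTA below, and the NA libraries of B4-4 were above those of Vector (difference +4.63, SE 0.42, adjusted p = 0.000164). The urokinase receptor PLAUR had 69.9 and 83.2 CPM in B4-4 EDTA, 47.4 and 44.9 CPM in B4-4 NA, 13.8 and 14.1 CPM in Vector EDTA and 57.2 and 58.7 CPM in Vector NA (difference +2.78, SE 0.27, adjusted p = 5.13e-05). Maspin, SERPINB5 (difference +1.38, SE 0.15, adjusted p = 6.92e-05), and thrombomodulin, THBD (difference +2.80, SE 0.57, adjusted p = 0.00953), were the others. The urokinase gene PLAU (+1.04, adjusted p = 0.138) and its relative PLAT (−0.67, adjusted p = 0.0537) did not pass.

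The F3 window at chr1:94541710-94542009 on the minus strand is printed for its pair of AP-1 elements, TGANTCA, in capitals.
F3: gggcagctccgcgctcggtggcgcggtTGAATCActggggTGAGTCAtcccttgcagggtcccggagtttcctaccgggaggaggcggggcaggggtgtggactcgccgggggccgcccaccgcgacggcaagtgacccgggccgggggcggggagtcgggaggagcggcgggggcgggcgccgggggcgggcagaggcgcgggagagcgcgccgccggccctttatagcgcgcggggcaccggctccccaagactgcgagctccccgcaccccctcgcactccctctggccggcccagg
TGANTCA, where N is any base, is its own reverse complement and occurs in 7.71% of the windows, 1 of them that of PLAUR.

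As a list, receptors and ligands of the basement membrane responded mainly in B4-4, but some members moved in both lines. Of 13 genes of laminin-binding integrins and the hemidesmosome, 8 had a positive difference and 0 a negative one, with a median of +0.93, and all 8 kept the call without each library. The median response of the list was +0.84 in B4-4 and −0.09 in Vector. EDTA against NA was called higher at 9 and lower at 0 in B4-4, and higher at 0 and lower at 2 in Vector. ITGA3 moved by +0.51 in B4-4 and −0.48 in Vector, and PLEC by +0.97 and −0.39. LAMB3 had 2290 and 2520 CPM in B4-4 EDTA, 539 and 1290 CPM in B4-4 NA, 422 and 473 CPM in Vector EDTA and 880 and 880 CPM in Vector NA. COL17A1, the transmembrane collagen of the hemidesmosome, had 1036 and 1078 CPM in B4-4 EDTA, 596 and 588 CPM in B4-4 NA, 689 and 719 CPM in Vector EDTA and 746 and 756 CPM in Vector NA. B4-4 EDTA lay above every other library (difference +0.93, SE 0.11, adjusted p = 0.000203). ITGA6, the partner chain of beta 4, had 1383 and 1345 CPM in B4-4 EDTA, 672 and 906 CPM in B4-4 NA, 899.6 and 804 CPM in Vector EDTA and 839 and 835 CPM in Vector NA (difference +0.76, SE 0.19, adjusted p = 0.0102), and B4-4 EDTA was again above the rest. The cytolinker PLEC (+1.36, adjusted p = 0.000109), the integrin chain ITGA3 (+0.99, adjusted p = 0.00214), the kindlin FERMT1 (+1.33, adjusted p = 0.000551) and the laminin 332 chains LAMA3 (+1.64, adjusted p = 0.00301) and LAMB3 (+2.37, adjusted p = 0.00794) passed. The integrin chain ITGB1 (+0.49, adjusted p = 0.131), the tetraspanin CD151 (+0.12, adjusted p = 0.818) and dystonin, DST (−0.28, adjusted p = 0.522), did not.

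Other matrix receptors and focal adhesion genes had 10 of 16 positive and 0 negative differences (median +0.91), of which 7 held without each library. The collagen receptor chain ITGA2 had 331 and 322 CPM in B4-4 EDTA, 151 and 146 CPM in B4-4 NA, 192 and 172 CPM in Vector EDTA and 204 and 200.4 CPM in Vector NA (difference +1.29, SE 0.15, adjusted p = 0.000105). Tenascin, TNC, a matrix glycoprotein, had 129.5 and 139 CPM in B4-4 EDTA, 17.9 and 21.7 CPM in B4-4 NA, 12.6 and 14.1 CPM in Vector EDTA and 12.2 and 12.3 CPM in Vector NA (difference +2.64, SE 0.31, adjusted p = 0.000223). Both genes were raised in B4-4 EDTA and nearly level in Vector. The adaptors vinculin, VCL (+0.96, adjusted p = 0.00209), paxillin, PXN (+0.85, adjusted p = 0.00172), and talin, TLN1 (+0.76, adjusted p = 0.00345), passed.

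The actin cytoskeleton showed the same arrangement. Of 20 genes of actin and its transcription factor SRF, 12 had a positive and 0 a negative difference (median +1.08; responses of +0.87 in B4-4 and −0.10 in Vector), and 6 held without each library. Non-muscle myosin, MYH9, had 2221 and 2248 CPM in B4-4 EDTA, 820.1 and 919.9 CPM in B4-4 NA, 819 and 869.5 CPM in Vector EDTA and 982 and 1015 CPM in Vector NA (difference +1.60, SE 0.17, adjusted p = 8.25e-05). The cross-linker filamin A, FLNA, had 3500 and 3479 CPM in B4-4 EDTA, 1510 and 1799 CPM in B4-4 NA, 1170 and 1314 CPM in Vector EDTA and 1567 and 1561 CPM in Vector NA (difference +1.41, SE 0.19, adjusted p = 0.000328). In both, B4-4 EDTA lay far above every other library. ACTN4, an alpha-actinin (+1.27, adjusted p = 0.000842), passed too, whereas SRF itself (+0.32, adjusted p = 0.166) did not.

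Targets of YAP and TAZ, coactivators that respond to tension and attachment, had 9 positive differences and 1 negative among 18 (median +0.93), with 8 calls held without each library. The junction scaffold AJUBA had 117 and 114 CPM in B4-4 EDTA, 58.4 and 61.8 CPM in B4-4 NA, 41.6 and 40.7 CPM in Vector EDTA and 72 and 76.2 CPM in Vector NA (difference +1.79, SE 0.13, adjusted p = 4.67e-06). FJX1, a secreted protein of the four-jointed family, had 50.8 and 53.6 CPM in B4-4 EDTA, 19.8 and 19.4 CPM in B4-4 NA, 11.8 and 12.8 CPM in Vector EDTA and 22.5 and 23 CPM in Vector NA (difference +2.30, SE 0.15, adjusted p = 3.17e-06). For both, B4-4 EDTA was highest and Vector EDTA lowest. CCN2, a matricellular protein, had 24.1 and 26.5 CPM in B4-4 EDTA, 5.28 and 3.51 CPM in B4-4 NA, 3.24 and 4.48 CPM in Vector EDTA and 2.58 and 4.06 CPM in Vector NA, and differed through B4-4 EDTA alone (difference +2.31, SE 0.34, adjusted p = 0.000672). The classic target CCN1 did not pass (−0.15, adjusted p = 0.887), nor did the partner factor TEAD1 (+0.61, adjusted p = 0.0558). AXL, a receptor kinase, was the negative one (−0.67, adjusted p = 0.0295) and missed the threshold without B4-4 EDTA 1 (0.0906), B4-4 EDTA 2 (0.0543), B4-4 NA 2 (0.0629), Vector EDTA 2 (0.0754), Vector NA 1 (0.0764) or Vector NA 2 (0.0734).

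At cell junctions the difference lay more in Vector. Of 20 genes of cadherins, nectins and desmosomes, 7 had a positive and 0 a negative difference (median +0.46; responses of +0.17 in B4-4 and −0.49 in Vector), 5 of them without each library. P-cadherin, CDH3, had 815 and 851 CPM in B4-4 EDTA, 592 and 765 CPM in B4-4 NA, 442 and 454 CPM in Vector EDTA and 746 and 742 CPM in Vector NA (difference +1.03, SE 0.20, adjusted p = 0.00325), with Vector EDTA below all other libraries. E-cadherin, CDH1 (difference +1.22, SE 0.23, adjusted p = 0.00272), and the nectin-like receptor PVR (difference +2.17, SE 0.20, adjusted p = 3.38e-05) also passed. PVR moved more in B4-4, with responses of +1.25 in B4-4 and −0.92 in Vector. NECTIN4 had 8.12 and 6.28 CPM in B4-4 EDTA, 19.9 and 17.7 CPM in B4-4 NA, 10.8 and 11.7 CPM in Vector EDTA and 16.5 and 14.5 CPM in Vector NA (difference −0.92, SE 0.48, adjusted p = 0.187). Its adjusted p was 0.0132 and 0.0127 without Addback EDTA 1 and 2. Of 14 tight junction genes, 6 were positive and 1 negative (median +0.76), and 5 of the 7 held without each library. Cingulin, CGN, had 14.2 and 13.6 CPM in B4-4 EDTA, 5.74 and 11 CPM in B4-4 NA, 0.695 and 1.11 CPM in Vector EDTA and 15 and 15.4 CPM in Vector NA, so that the low group was Vector EDTA (difference +4.80, SE 0.66, adjusted p = 0.000737). TJP3, a scaffold related to ZO-1, was the negative one, at 1.4 and 2.66 CPM in B4-4 EDTA, 14.8 and 11.8 CPM in B4-4 NA, 7.74 and 9.97 CPM in Vector EDTA and 14.1 and 15.9 CPM in Vector NA (difference −1.95, SE 0.35, adjusted p = 0.00207), with EDTA below NA in both lines. The scaffold TJP1 (+0.14, adjusted p = 0.531) did not pass.

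**Figure D4:**
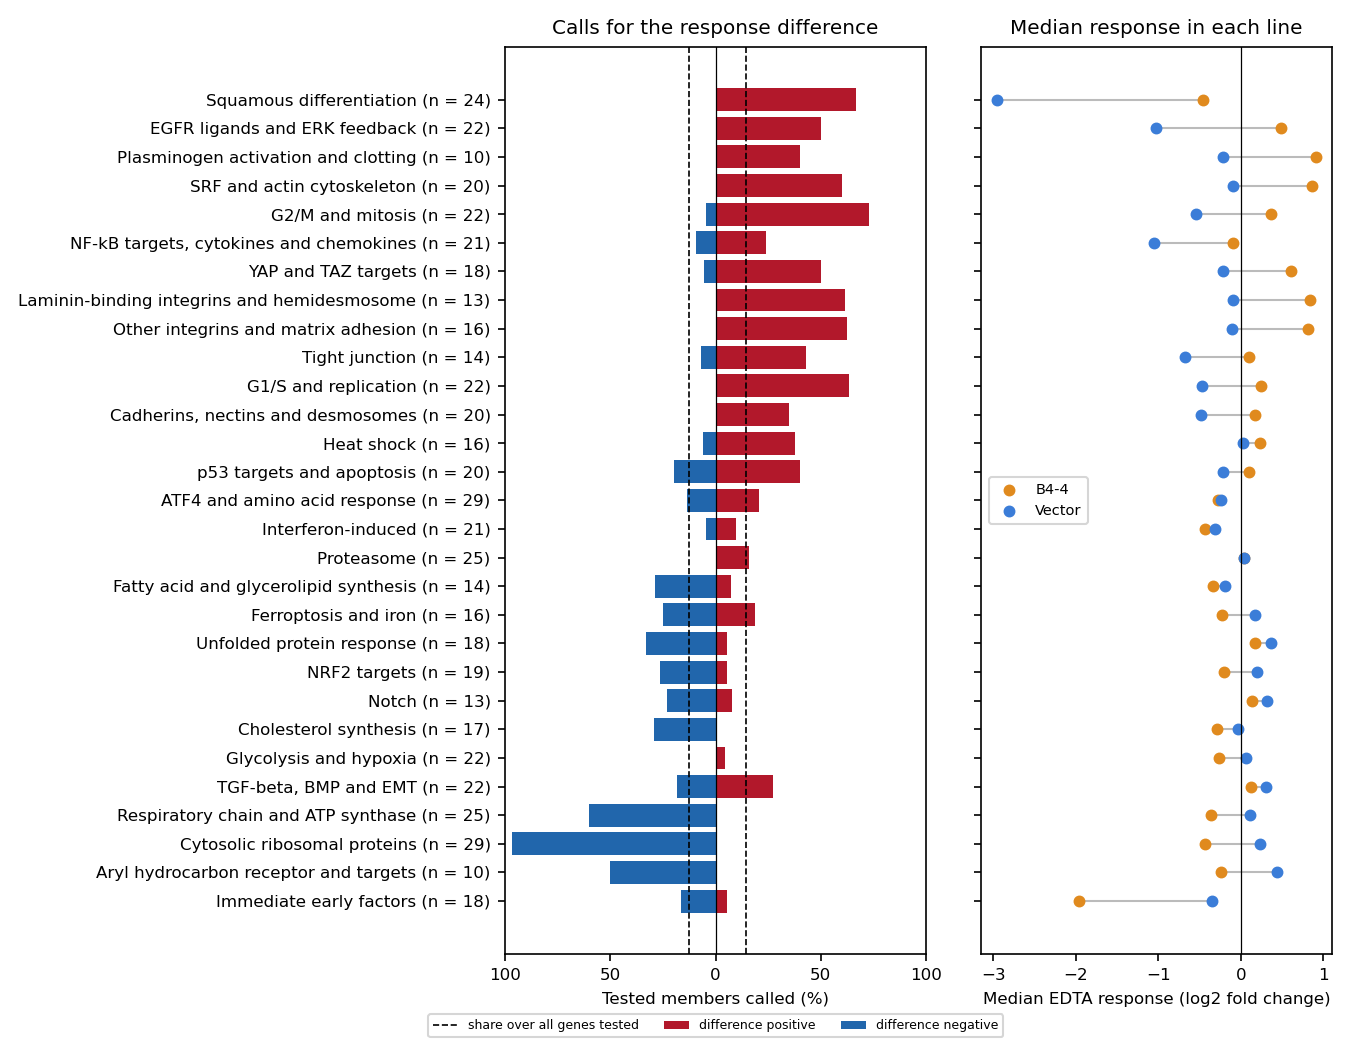
The left panel gives, for each gene list, the share of tested members with a positive and with a negative difference, and the right panel the median log2 response in B4-4 and in Vector. Dashed lines in the left panel mark the shares over all genes, 14.4% and 12.6%; most lists with many positive differences have a median above 0 in B4-4 or below 0 in Vector, or both.

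Squamous differentiation genes, which build the outer layers of skin, had 16 positive and 0 negative differences among 24 (median +2.27), 13 of them without each library. The median response was −0.46 in B4-4 and −2.95 in Vector. The stress keratin KRT6A (ENSG00000205420, chromosome 12, 52487174 to 52493257, minus strand) had 3836 and 4060 CPM in B4-4 EDTA, 1852 and 2291 CPM in B4-4 NA, 1011 and 1066 CPM in Vector EDTA and 2131 and 2141 CPM in Vector NA. B4-4 EDTA was highest and Vector EDTA lowest (difference +1.97, SE 0.14, adjusted p = 4.67e-06), although KRT6A, KRT6B and KRT6C are near-identical and may share reads. TGM1, which cross-links the cornified envelope, had 68 and 73 CPM in B4-4 EDTA, 209.9 and 311 CPM in B4-4 NA, 45.4 and 49.9 CPM in Vector EDTA and 518 and 513 CPM in Vector NA. EDTA lay below NA in both lines, and by more in Vector (difference +1.55, SE 0.21, adjusted p = 0.000362). The small proline-rich protein SPRR1B (+1.96, adjusted p = 0.003) passed, while KRT10 (−0.16, adjusted p = 0.699) and the calprotectin genes S100A8 (−0.68, adjusted p = 0.287) and S100A9 (−1.44, adjusted p = 0.138) did not. S100A7 was at 0 in both Vector EDTA libraries, and with 3 counts set over that group its difference was 5.74 or more, which left the median of the list at +2.27.

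Proliferation genes mostly had positive differences. In such bulk libraries, fewer cells in a phase and less RNA per cell cannot be told apart. Of 22 genes of G2/M and mitosis, 16 had a positive and 1 a negative difference (median +0.99; responses of +0.37 in B4-4 and −0.54 in Vector), and 14 of the 17 held without each library. The spindle factor TPX2 had 311 and 326 CPM in B4-4 EDTA, 233 and 239 CPM in B4-4 NA, 213 and 213 CPM in Vector EDTA and 359 and 357 CPM in Vector NA (difference +1.18, SE 0.12, adjusted p = 5.3e-05). The kinesin KIF23 had 155 and 160.0 CPM in B4-4 EDTA, 102 and 83 CPM in B4-4 NA, 69.7 and 65.1 CPM in Vector EDTA and 123 and 121 CPM in Vector NA (difference +1.62, SE 0.15, adjusted p = 3.05e-05). Both were high in B4-4 EDTA and Vector NA and lower in B4-4 NA and Vector EDTA. MKI67 (+1.42, adjusted p = 0.000578), CCNB1 (+1.07, adjusted p = 0.000264) and PLK1 (+1.12, adjusted p = 0.000234) passed, and CDC25B was the negative one (−0.75, adjusted p = 0.00364). Of 22 genes of G1/S and replication, 14 were positive and 0 negative (median +0.61), 8 of them without each library. The ribonucleotide reductase subunit RRM2 had 410.2 and 418 CPM in B4-4 EDTA, 294 and 222 CPM in B4-4 NA, 112 and 105 CPM in Vector EDTA and 261 and 268 CPM in Vector NA (difference +1.97, SE 0.20, adjusted p = 5.3e-05), and E2F2 differed through Vector, with responses of +0.29 in B4-4 and −2.31 in Vector (difference +2.59, SE 0.29, adjusted p = 0.000102). The helicase subunits MCM4 (+0.13, adjusted p = 0.596) and MCM7 (+0.18, adjusted p = 0.304) and the clamp PCNA (+0.14, adjusted p = 0.406) did not pass.

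The protein synthesis and respiration machinery had negative differences of small size. Of 29 cytosolic ribosomal protein genes, 28 were negative and 0 positive (median −0.69; responses of −0.43 in B4-4 and +0.24 in Vector), and 19 held without each library. RPLP0, of the ribosomal stalk, had 1953 and 1901 CPM in B4-4 EDTA, 2650 and 2869 CPM in B4-4 NA, 3056 and 3218 CPM in Vector EDTA and 2576 and 2580 CPM in Vector NA. The groups followed one another without overlap, B4-4 EDTA lowest and Vector EDTA highest (difference −0.80, SE 0.13, adjusted p = 0.00117). RPL5 (−0.84, adjusted p = 0.0011) and RPS6 (−0.78, adjusted p = 0.00117) were alike in size, and RPLP2 was the gene that did not pass (−0.46, adjusted p = 0.0822). Such genes have processed pseudogenes that can take part of their reads. Of 25 nuclear genes of the respiratory chain and ATP synthase, 15 were negative and 0 positive (median −0.49), but only 4 held without each library. Cytochrome oxidase subunit COX5B had 75.5 and 75 CPM in B4-4 EDTA, 105 and 118 CPM in B4-4 NA, 110.0 and 136 CPM in Vector EDTA and 103 and 109.5 CPM in Vector NA (difference −0.78, SE 0.16, adjusted p = 0.00456). CPM are shares of a library, so these values do not tell a loss per cell from a gain of other transcripts.

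Of 18 genes of the unfolded protein response, 6 had a negative and 1 a positive difference (median −0.24), 6 of them without each library. The chaperone BiP, HSPA5 (ENSG00000044574, chromosome 9, 125234853 to 125241330, minus strand), had 908 and 972 CPM in B4-4 EDTA, 1032 and 813 CPM in B4-4 NA, 1224 and 1262 CPM in Vector EDTA and 486 and 490.2 CPM in Vector NA. Vector NA was low and the other 3 groups were high, so that the difference came from Vector (difference −1.32, SE 0.15, adjusted p = 0.000117). DNAJB9, a co-chaperone of BiP, had 18.5 and 19.1 CPM in B4-4 EDTA, 36.4 and 46.4 CPM in B4-4 NA, 72.8 and 59.5 CPM in Vector EDTA and 20.9 and 21.3 CPM in Vector NA and was highest in Vector EDTA (difference −2.78, SE 0.21, adjusted p = 6.52e-06). The degradation factor HERPUD1 (difference −2.28, SE 0.26, adjusted p = 0.000157), with responses of −1.27 in B4-4 and +1.01 in Vector, and the transcription factor XBP1 (difference −1.22, SE 0.14, adjusted p = 0.000129), with −0.61 in B4-4 and +0.61 in Vector, were negative, and EDEM1 was the positive one (+0.59, adjusted p = 0.0043). The protein disulphide isomerases PDIA3 (−0.24, adjusted p = 0.27), PDIA4 (+0.06, adjusted p = 0.814) and PDIA6 (−0.24, adjusted p = 0.235) did not pass.

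The HSPA5 window is shown because it holds an endoplasmic reticulum stress element, CCAAT and CCACG with any 9 bases between them, in capitals, at chr9:125241294-125241593 on the minus strand.
HSPA5: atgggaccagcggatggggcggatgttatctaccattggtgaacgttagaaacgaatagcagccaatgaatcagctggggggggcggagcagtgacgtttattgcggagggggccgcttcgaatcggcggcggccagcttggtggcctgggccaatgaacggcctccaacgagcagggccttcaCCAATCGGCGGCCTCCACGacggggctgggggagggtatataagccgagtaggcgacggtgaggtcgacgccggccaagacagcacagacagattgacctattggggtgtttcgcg
The element was searched on both strands and found in 27 of 35116 windows (0.0769%), 1 copy in that of HSPA5.

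The ATF4 list, which covers amino acid synthesis and transport, was mixed, with 6 positive and 4 negative differences among 29 (median +0.18), 6 of the 10 without each library. The pseudokinase TRIB3 had 80.4 and 87.8 CPM in B4-4 EDTA, 83.7 and 77 CPM in B4-4 NA, 104 and 116 CPM in Vector EDTA and 300.3 and 288 CPM in Vector NA, with Vector NA above all others (difference +1.48, SE 0.15, adjusted p = 5.13e-05). STC2 (difference +1.87, SE 0.19, adjusted p = 6.24e-05) and the glutathione-degrading enzyme CHAC1 (difference +5.60, SE 0.70, adjusted p = 0.000255) were arranged in that way too. PHGDH, the first enzyme of serine synthesis, went the other way, at 31 and 34.7 CPM in B4-4 EDTA, 76.4 and 103 CPM in B4-4 NA, 191 and 212 CPM in Vector EDTA and 148 and 149 CPM in Vector NA (difference −1.88, SE 0.21, adjusted p = 0.000102). B4-4 EDTA was lowest and Vector EDTA highest. ATF4 itself did not pass (−0.39, adjusted p = 0.135). Over the list, 20.7% of genes were positive and 13.8% negative, against 14.4% and 12.6% of all genes. Of 16 heat shock genes, 6 were positive and 1 negative (median +0.31), 4 of the 7 without each library, including HSPH1 (difference +0.54, SE 0.12, adjusted p = 0.00783) and HSPA8 (+0.55, adjusted p = 0.0104), with DNAJB4 negative (−1.24, adjusted p = 0.00221). HSPA1A and HSPA1B, which are near-identical, are uncertain.

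Among genes of iron handling and ferroptosis, an iron-dependent form of cell death, 3 of 16 had a positive and 4 a negative difference (median −0.20), 5 of the 7 without each library. These were 18.8% positive and 25% negative, against 14.4% and 12.6% of all genes. PROM2 (ENSG00000155066, chromosome 2, 95274453 to 95291308, plus strand), a membrane protein linked to ferritin export, had 5.64 and 5.75 CPM in B4-4 EDTA, 13.6 and 15.8 CPM in B4-4 NA, 4.73 and 4.48 CPM in Vector EDTA and 40.4 and 40.8 CPM in Vector NA. EDTA lay below NA in both lines, by less in B4-4, and the lines were nearer to each other in EDTA than in NA (difference +1.77, SE 0.21, adjusted p = 0.000173). The ferritin heavy chain FTH1 had 692 and 718 CPM in B4-4 EDTA, 1146 and 1041 CPM in B4-4 NA, 919 and 1071 CPM in Vector EDTA and 676 and 696 CPM in Vector NA, high in B4-4 NA and Vector EDTA (difference −1.17, SE 0.14, adjusted p = 0.000196). The light chain FTL (difference −1.42, SE 0.23, adjusted p = 0.00125), the ferritin receptor NCOA4 (−0.83, adjusted p = 0.000678) and the peroxidase GPX4 (−1.46, adjusted p = 0.00214) were negative as well. ACSL4 (−0.16, adjusted p = 0.618) and the transferrin receptor TFRC (−0.01, adjusted p = 0.986) did not pass. Of 19 targets of the oxidative stress factor NRF2, 1 was positive (5.26%) and 5 negative (26.3%; median −0.25), 3 of the 6 without each library. NFE2L2, which encodes NRF2, had 118 and 119 CPM in B4-4 EDTA, 195 and 233 CPM in B4-4 NA, 322 and 275 CPM in Vector EDTA and 178 and 181 CPM in Vector NA, with B4-4 EDTA lowest, Vector EDTA highest and no overlap between groups (difference −1.59, SE 0.17, adjusted p = 6.92e-05). TKT (−0.98, adjusted p = 0.00146) and PGD (−0.57, adjusted p = 0.00526) of the pentose phosphate pathway passed, while HMOX1 (−1.39, adjusted p = 0.251) and GCLM (+0.22, adjusted p = 0.513) did not.

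Genes of epithelial-mesenchymal transition and of TGF-beta and BMP signalling were divided, with 6 positive and 4 negative differences among 22 (median −0.41), 4 of the 10 without each library. The transcription factor SNAI2 had 62.9 and 65.1 CPM in B4-4 EDTA, 129 and 142 CPM in B4-4 NA, 285 and 261 CPM in Vector EDTA and 69.2 and 70.3 CPM in Vector NA. Vector EDTA was highest, and B4-4 EDTA and Vector NA were lowest (difference −3.05, SE 0.37, adjusted p = 0.000631). N-cadherin, CDH2, had 19.6 and 16.2 CPM in B4-4 EDTA, 21.9 and 15.2 CPM in B4-4 NA, 28.5 and 27.5 CPM in Vector EDTA and 8.24 and 6.94 CPM in Vector NA (difference −1.94, SE 0.42, adjusted p = 0.00794), and the low group was Vector NA. The BMP target ID1 (difference +2.50, SE 0.38, adjusted p = 0.00135) and the receptor TGFBR2 (+1.01, adjusted p = 0.000637) were positive. Fibronectin, FN1 (+3.10, adjusted p = 0.066), and the factor TWIST1 (−0.48, adjusted p = 0.211) did not pass. Of 5 fibroblast markers tested, 2 were negative and 0 positive, COL1A1 without each library (−1.29, adjusted p = 0.00728), and the part of such cells in these values was not tested.

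Of 13 Notch genes, 1 was positive (7.69%, against 14.4% of all genes) and 3 negative (23.1%, against 12.6%), with a median of −0.27. NRARP and the ligand JAG1 (difference −0.96, SE 0.17, adjusted p = 0.0018) were negative without each library. The receptors NOTCH1 (−0.14, adjusted p = 0.656) and NOTCH3 (−0.32, adjusted p = 0.765) were not called. Of 21 genes of NF-kB, cytokines and chemokines, 5 were positive (23.8%, against 14.4% of all genes) and 2 negative (9.52%, against 12.6%). The median was +0.96, and 4 of the 7 held without each library. Besides CSF3 these included LIF, a cytokine of the interleukin 6 family, at 10 and 10.8 CPM in B4-4 EDTA, 6.37 and 3.7 CPM in B4-4 NA, 2.64 and 2.62 CPM in Vector EDTA and 6.17 and 5.19 CPM in Vector NA (difference +2.15, SE 0.31, adjusted p = 0.000612), and the NF-kB subunit RELB, which was negative (−1.26, adjusted p = 0.00241). CXCL8 (+1.52, adjusted p = 0.512), NFKBIA (+0.37, adjusted p = 0.713) and TNFAIP3 (−0.76, adjusted p = 0.591) did not pass. Of 18 immediate early factors, 1 was positive (5.56%, against 14.4% of all genes) and 3 negative (16.7%, against 12.6%), with a median of −2.23. JUND held without each library (difference −2.91, SE 0.47, adjusted p = 0.00345), whereas FOS (−1.88, adjusted p = 0.518), EGR1 (−3.07, adjusted p = 0.268) and JUN (−2.73, adjusted p = 0.222) had wide spreads and were not called. Of 21 interferon-induced genes, 2 were positive (9.52%, against 14.4% of all genes) and 1 negative (4.76%, against 12.6%). The median was +0.17, and 0 held without each library.

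In lipid metabolism, cholesterol synthesis had 0 positive and 5 negative differences among 17 (median −0.33), of which SREBF2, the master regulator of sterol synthesis (−0.59, adjusted p = 0.00357), held without each library. Fatty acid and glycerolipid synthesis had 1 positive (7.14%, against 14.4% of all genes) and 4 negative (28.6%, against 12.6%) among 14 (median −0.14). The acetyl-CoA synthetase ACSS2 had 43.6 and 44.9 CPM in B4-4 EDTA, 118 and 149.5 CPM in B4-4 NA, 160.1 and 170.5 CPM in Vector EDTA and 189 and 185 CPM in Vector NA, with B4-4 EDTA the low group (difference −1.42, SE 0.15, adjusted p = 8.52e-05), and the phosphatidate phosphatase LPIN1 was negative as well (difference −1.63, SE 0.23, adjusted p = 0.000546). Glycolysis and hypoxia genes had 1 of 22 called, the phosphofructokinase PFKP (+0.54, adjusted p = 0.00608), although the median was −0.40. That is 4.55% positive and 0% negative, below the 14.4% and 12.6% of all genes. Of 20 genes of p53 and apoptosis, 8 were positive and 4 negative (median +0.31), 5 of the 12 without each library. BTG2, an antiproliferative factor, had 41.8 and 40.1 CPM in B4-4 EDTA, 189 and 156 CPM in B4-4 NA, 182 and 188 CPM in Vector EDTA and 112 and 112 CPM in Vector NA, and B4-4 EDTA was the low group (difference −2.80, SE 0.19, adjusted p = 4.23e-06). The death receptor FAS (+0.96, adjusted p = 0.00245) and the glycolysis regulator TIGAR (+1.26, adjusted p = 0.000361) were positive, and MDM2 (+0.50, adjusted p = 0.183) did not pass. Of 25 proteasome genes, 4 were positive (16%, against 14.4% of all genes) and 0 negative (12.6% of all genes). The median was −0.03, opposite in sign to the count, and 0 calls held without each library.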

How the data were processed

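RNA was measured in 12 libraries (6 groups of 2) of detached MCF10-A cells. Per the submitters' processing notes TopHat2 2.1.1, SAMtools 1.4.1 and featureCounts 1.5.3 were used. GRCh38, hg19 and hg38 are named there without roles. The authors deposited raw counts, whole numbers of reads for each of 58233 Ensembl genes. Per the labels' protocols the libraries were stranded and polyA-selected, but no source used here states the strand setting or annotation release. Symbols were found for 57392 genes, and coordinates are 1-based GRCh38 from GENCODE 29. Library totals were 15685376 to 22156173 counts, 99.87% or more of them in genes that were tested.

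The tests used edgeR 4.0.16 under R 4.3.3, with filterByExpr over the 6 groups, TMM factors, robust quasi-likelihood fits of 6 group means to all 12 libraries, and Benjamini-Hochberg adjustment over 15749 genes, called at adjusted p under 0.05. Each SE is |log2 difference|/√F. The steps were run on simulated counts in which each gene had the same spread in every group, unlike these groups. That run cannot tell how unequal spreads affect the p-values. CPM use TMM-scaled totals. A floor of 3 counts reflects counting error alone.

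Named genes follow a rule. They are ITGB4, ITGA6, PROM2 and NECTIN4, the 12 largest differences per direction, and up to 4 called members of each list with the smallest p. The largest differences were taken among called genes at a mean of 5 CPM or more. Clone, LINC and antisense names were left out. Responses of the lines had to lie apart over all library combinations (log2 CPM, prior count 2). Other genes in the text were chosen after their values were seen. The members and the 34 lists were chosen with earlier results of these data known, and F3, VCL and some others are in more than 1 list. Lists are described by counts and medians, with no test. Promoter windows come from RefSeq (GRCh38.p14) and matched 98 of 128 named genes. Alternatives were RLE and upper-quartile factors, no filter, DESeq2 1.42.0, limma 3.58.1 (voom with quality weights per group), the replicate number as a block, the 8 libraries of B4-4 and Vector by themselves, a minimum change of 1.5-fold, and each library omitted in turn.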

Additional observations from a re-analysis of the deposited data

Results flagged for a closer look

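The responses to EDTA differed between B4-4 and Vector, by the test of the difference itself, at 4249 genes, every one of which could stand here. Among the 24 largest differences under the rule for named genes, 12 belong to genes called in both lines in opposite directions. With EDTA, 4 of them were higher in B4-4 and lower in Vector: CSF3 at +6.48, F3 at +4.63, AREG at +4.49 and ENC1 at +4.12 on the log2 scale. The other 8 were lower in B4-4 and higher in Vector: CYP1A1 at −10.11, CYP1B1 at −8.72, TPPP at −4.47, RIPK4 at −4.35, TIPARP at −4.32, ETNK2 at −4.19, NRARP at −4.18 and CREBRF at −4.15. Each of these 12 passed the test of the difference without each library in turn. No group had enough libraries to look for a single outlying one.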

How the results depend on the processing

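The 4249 differences became 4272 with RLE factors, 4302 with upper-quartile factors, 4602 without a filter, 4034 with DESeq2, 4232 with voom, 4247 in the 8 libraries alone and 1283 at a 1.5-fold minimum, and no shared call changed sign. Without a filter, 1874 genes differed between the lines in NA, and 34 of the genes called for the difference, against 18 with the filter, were called in both lines in the same direction. With voom, EDTA against NA gave 1740 genes in B4-4 and 4892 in Vector, and B4-4 against Vector in NA gave 613. The 1.5-fold minimum left 258 genes for EDTA in B4-4, 348 in Vector, 2054 for the lines in EDTA and 29 in NA. B4-4 NA 2 and Vector EDTA 2 have identifiers in a lower range than the other 6; leaving both out, chosen after seeing the data, gave 4525 differences and 1706 genes between the lines in NA. Leaving out 1 library in turn gave 2364 to 5515 differences, 726 to 4549 genes for EDTA in B4-4, 724 to 4020 in Vector, 4383 to 8169 for the lines in EDTA and 81 to 3319 in NA. Among the genes called for the difference, the ranges were 223 to 1376 for genes called in both lines in opposite directions, 6 to 55 in the same direction, 399 to 2079 in B4-4 alone, 348 to 1642 in Vector alone and 614 to 949 in neither. The ITGB4 log2 difference reversed to −0.047 without B4-4 NA 1 (adjusted p = 0.824) and passed at +1.08 without B4-4 NA 2 (adjusted p = 0.000142). The causes were not tested. Over all alternatives, 201 values of named genes lost the call, 6 gained it, 2480 kept their direction and their side of the threshold and 1 reversed. Same-numbered replicates deviated with correlations from −0.167 to 0.314. With 2 libraries a group, these values cannot tell whether the numbers pair the samples. With the replicate block the count was 4260, of which 4085 were shared. With 2 libraries a group, every p-value rests on a spread shared over groups whose replicates were unequally close, and a library left alone in its group is assumed to vary like the others.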

Other observations

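Histone genes of the replication-dependent clusters, whose transcripts mostly lack a polyA tail and peak in S phase, were looked at after their values were seen. Of 36 tested, 20 had a negative difference (55.6%, against 12.6% of all genes) and 0 a positive one (14.4% of all genes), with a median of −2.16 on the log2 scale, and 6 of the 20 passed without each library in turn, while 14 of 22 genes of G1/S and replication were positive. H2BC5 had 3.15 and 3.35 CPM in B4-4 EDTA, 12.9 and 8.49 CPM in B4-4 NA, 21.6 and 20.9 CPM in Vector EDTA and 4.93 and 4.52 CPM in Vector NA. No groups overlapped (−3.88, SE 0.32, adjusted p = 1.38e-05). H2AC25 was similar (−2.90, SE 0.43, adjusted p = 0.000992). Several members are near-identical, such as H3C14 and H3C15, and may share reads. The libraries were polyA-selected per the labels' protocols, so these levels do not stand for all histone transcripts. Some members lay near or below the floor of 3 counts. H4C4 (−6.06) had 0 and 0.0533 CPM in B4-4 EDTA and 0.112 and 0 CPM in Vector NA.

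Circadian clock genes, also chosen after their values were seen, had a negative difference at 7 of 18 (38.9%, against 12.6% of all genes) and a positive one at 0 (14.4% of all genes), with a median of −0.77. The 7 were NR1D2, DBP, TEF and NFIL3, which passed without each library in turn, and PER1, PER2 and RORA, which did not. NFIL3, a repressor of the clock output, had the smallest p (−3.24, SE 0.25, adjusted p = 6.52e-06), followed by TEF, an activator of that output (−3.56, SE 0.51, adjusted p = 0.000525). The core activators CLOCK (+0.49, adjusted p = 0.134) and BMAL1 (+0.17, adjusted p = 0.481) did not pass. PER2 was at 74.8 and 17.1 CPM in the B4-4 NA libraries, which differed widely for this gene.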
